A study of Saccharomyces cerevisiae with 24 samples.

Results

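The effect of H3L126H on each transcript was compared between 2 carbon sources, as the interaction of strain and medium. For every gene this is the log2 difference between H3L126H and WT in YPEG minus the same difference in YPD, so a positive value means that the mutant stood higher, relative to WT, in YPEG than in YPD. The comparison used all genes and 16 of the 24 libraries of the series, 4 each of WT and H3L126H in YPD and in YPEG. The study built yeast strains with substitutions at leucine 126 of histone H3, a residue it placed in the copper-binding pocket of the nucleosome, and sequenced poly-A RNA of whole cells in a fermentative and an oxidative medium. WT was the strain OCY1131, a MATa haploid made from BY4741 (S288C background) that carries his3Δ1, leu2Δ0, met15Δ0 and ura3Δ0 and whose *HHT2* locus had been replaced and restored, written (hht2Δ::ura3)Δ::HHT2. H3L126H was NTY041, the same background with hht1-L126H and hht2-L126H, edited with CRISPR-Cas9 at both H3 genes. H3L126M, used below only where named, was NTY062, the same background with hht1-L126M and hht2-L126M, with 4 libraries in each medium. YPD holds glucose and YPEG holds ethanol and glycerol in place of glucose, with yeast extract and peptone in both, and cells were collected after a few doublings. Each genotype is represented by 1 strain, so the substitution cannot be told apart from anything else that differs between these strains, and the p-values measure only the spread between the 4 libraries of a group, which the study describes as replicate experiments.

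On glucose, budding yeast ferments and represses the genes for respiration and for the use of other carbon sources. On ethanol and glycerol it induces the tricarboxylic acid (TCA) cycle, the glyoxylate cycle, gluconeogenesis and the respiratory chain, and most of its ATP then comes from mitochondria. Histone H3 is encoded by *HHT1* and *HHT2*, each of which shares a promoter region with a histone H4 gene, *HHF1* or *HHF2*.

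The edited residue is shown first, because it defines the mutant. The last bases of both H3 genes, up to and with the stop codon, read as follows in the RefSeq R64 reference, with codon 126 (counted from the first residue after the initiator methionine) in capitals. TTG encodes leucine in both genes, and 9 codons follow it before the stop codon. *HHT1* (YBR010W) is shown at chrII:256679-256741 on the plus strand and *HHT2* (YNL031C) at chrXIV:575640-575702 on the minus strand.
HHT1: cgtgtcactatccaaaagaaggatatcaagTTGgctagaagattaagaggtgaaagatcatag
HHT2: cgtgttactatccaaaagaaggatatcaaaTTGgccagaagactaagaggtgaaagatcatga
The substitution itself cannot be seen in counts per gene and was not checked. The deletion alleles could be checked, and *LEU2*, *MET17* (the gene marked met15Δ0) and *URA3* were at 0 in all 16 libraries.

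Total counts were 11465913 to 13024479 in WT and 9005368 to 11097582 in H3L126H in YPD, and 8570789 to 10812303 and 11003856 to 15577958 in YPEG. The first principal component (77.1% of the variance) separated the media, the second (9.6%) the strains and the third (6.5%) WT replicates 1 and 2 from the other WT libraries of YPD. The third component also separated the strains in YPEG, at -19.06 to -1.93 in WT and 8.1 to 12.27 in H3L126H. Libraries of one group differed by a chi-square per degree of freedom of 4.07 between WT replicates 1 and 2 and 10.4 between replicates 3 and 4 in YPD, against 53.9 to 88.6 across these pairs, where 1 would be counting noise alone. In YPEG the same pairs of WT gave 11.5 and 22.9, against 54.9 to 79.2 across. The H3L126H libraries showed no division of this size (4.01 to 6.27 in YPD and 15.3 to 31.3 in YPEG). A weak division along the same numbers was present in both media, in the deviations of libraries from their group means. In YPD those of WT replicates 1 and 2 correlated at 0.065 to 0.124 with H3L126H replicates 1 and 2. With H3L126H replicates 3 and 4 they correlated at -0.117 to -0.081. In YPEG the same ranges were -0.009 to 0.378 and -0.279 to -0.07. WT replicates 1 and 2 thus stood apart from replicates 3 and 4 in both media, and results are given below also with either pair left out. The strain is MATa, and the sum of 7 a-cell genes was 13920 to 23459 in WT and 14307 to 15364 in H3L126H in YPD (normalized counts), and 3868 to 4171 and 3456 to 3762 in YPEG. The 4 alpha-cell genes summed to 334.7 to 434.9 in WT and 668.3 to 751.6 in H3L126H in YPD, and to 536.1 to 591.5 and 851.4 to 964.8 in YPEG. Sums of 8 sporulation genes were 683 to 799.6 and 948 to 1039 in YPD, and 1276 to 1373 and 1191 to 1417 in YPEG, and the part of these cell types in the results was not tested.

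Of 6038 genes tested, the interaction was called for 949 (15.7%) with the quasi-likelihood test of edgeR at a Benjamini-Hochberg adjusted p below 0.05. In bulk RNA, fewer cells that express a gene and less RNA per cell cannot be told apart. In 527 (8.73%) the mutant effect was higher in YPEG than in YPD and in 422 (6.99%) it was lower. At least 2-fold differences were fewer, 234 genes (3.88%), of which 150 were higher (2.48%) and 84 lower (1.39%). The median interaction over all genes was 0.025 on the log2 scale and its median absolute value 0.250, with a median SE of 0.168. H3L126H differed from WT at 2504 genes (41.5%) in YPD and at 2249 (37.2%) in YPEG. Of the 1160 genes called in both media, 1068 had the same sign and 92 opposite signs. A call in 1 medium only was no sign of an interaction by itself, since 901 of the 1344 genes called only in YPD and 775 of the 1089 called only in YPEG had no interaction call. Without WT replicates 1 and 2 the interaction was called for 1787 genes and without replicates 3 and 4 for 2354, that is 29.3% and 38.7% of the genes tested, and 655 of the 949 were called with the same sign in both (313 higher and 342 lower). The excess of higher over lower calls did not hold with DESeq2 size factors (448 higher, 524 lower), with the Wald test of DESeq2 (574 and 668) or with chromosome medians removed (416 and 486).

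The 949 genes were sorted by their calls against WT in each medium. In 92 the effect reversed, with calls of opposite sign in the 2 media. In 314 it was gained, called in YPEG only, and in 443 it was lost, called in YPD only. In 17 it had the same direction and was larger in YPEG, in 51 it was smaller in YPEG, and 32 were called in neither medium. The 53 reversed genes with a lower effect in YPEG had a median of 0.42 in YPD and -0.45 in YPEG (log2, H3L126H against WT), and the 39 with a higher effect had -0.54 and 0.54. For gained genes with a higher effect in YPEG the medians were -0.10 and 0.58, and for those with a lower effect 0.13 and -0.48. The lost genes had -0.60 and 0.10 where the effect was higher in YPEG, and 0.60 and -0.07 where it was lower. A gene that was not called in a medium is not shown to be unchanged there. When size was used in place of the calls, with at least a 2-fold effect in one medium and less than 0.32 on the log2 scale in the other, 64 genes were lost and 16 gained, and 153 had opposite signs with at least 0.32 in both media. The interaction of all 92 reversed genes was called with the same sign when each library was left out in turn. The same held for 149 of the 314 gained and 246 of the 443 lost. Reversed genes were selected on calls of opposite sign in both media, so these shares do not compare the stability of the classes. The class itself was less stable, and 60 to 195 genes were classed as reversed in these fits.

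**Figure D1:**
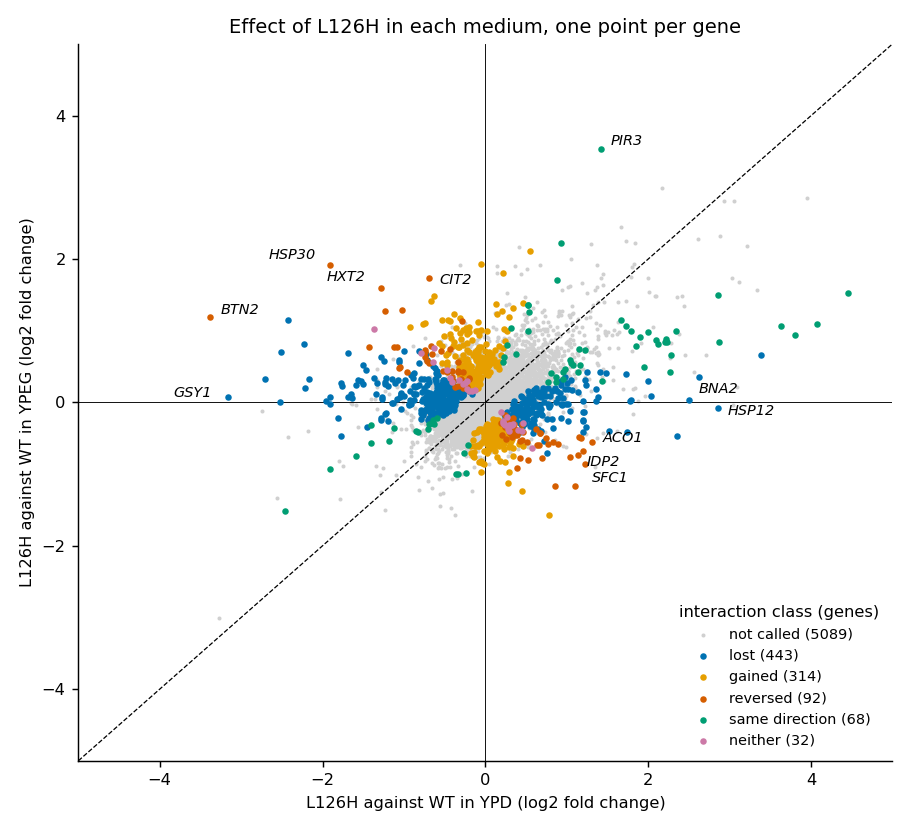
Log2 difference between H3L126H and WT in YPD (horizontal axis) and in YPEG (vertical axis) for 6037 of the 6038 genes tested, coloured by class, with 1 gene outside the axes at 5. Genes on the diagonal had the same effect in both media, and the 92 reversed genes lie in the upper left and lower right.

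In 53 genes the mutant was higher than WT in YPD and lower in YPEG, and those with the lowest interaction included enzymes and carriers of ethanol metabolism and the TCA cycle. *ACO1* (YLR304C, chromosome XII 735212-737548) encodes mitochondrial aconitase, which converts citrate to isocitrate. In YPD the normalized counts of *ACO1* (replicates 1 to 4 in order, here and below) were 3517, 3667, 3502 and 3658 in WT and 9129, 8761, 8745 and 9009 in H3L126H. In YPEG they were 26411, 28590, 23951 and 25366 in WT and 16009, 17021, 22131 and 16150 in H3L126H. The 4 mutant libraries all lay above WT in YPD and all below it in YPEG, and replicate 3 was the nearest to WT in YPEG. Over all genes, 40.5% had H3L126H and WT libraries that did not overlap in YPD and 33.6% in YPEG. The log2 effect was 1.31 (SE 0.10) in YPD and -0.55 (SE 0.10) in YPEG, an interaction of -1.86 (SE 0.14, edgeR adjusted p = 6.68e-07). The change from YPD to YPEG was 7.27-fold in WT and 2.00-fold in H3L126H.

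*SFC1* (YJR095W, chromosome X 609773-610741) encodes the mitochondrial carrier that exchanges succinate for fumarate, needed for growth on ethanol. Its counts in YPD were 15.1, 14.7, 37.8 and 23.4 in WT and 52.1, 56.9, 52.4 and 53.0 in H3L126H. In YPEG they were 9944, 10968, 9523 and 10873 in WT and 5885, 5552, 6034 and 5360 in H3L126H. *SFC1* thus rose 449-fold with the medium in WT and 106-fold in H3L126H, from a low level in YPD in both strains. Its interaction was -2.08 (SE 0.24, edgeR adjusted p = 4.26e-05). *IDP2* (YLR174W, chromosome XII 504591-505829), the cytosolic NADP-dependent isocitrate dehydrogenase, had 65.6, 66.5, 118 and 91.7 in WT and 153, 199, 213 and 186 in H3L126H in YPD. In YPEG *IDP2* had 7575, 7324, 6599 and 7906 in WT and 4567, 4048, 4376 and 4632 in H3L126H. The interaction of *IDP2* was -1.87 (SE 0.20, edgeR adjusted p = 2.68e-05).

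*CYC1* (YJR048W, chromosome X 526335-526664) encodes the main isoform of cytochrome c, the electron carrier between complexes III and IV. It had 364, 309, 369.8 and 302 in WT and 626, 590.4, 591 and 589 in H3L126H in YPD. In YPEG it had 4680, 5071, 4202 and 4242 in WT and 2767, 3211, 3323 and 3070 in H3L126H. No mutant library overlapped the WT libraries in either medium, and the interaction was -1.39 (SE 0.12, edgeR adjusted p = 4.29e-06). *IDH1*, a subunit of the mitochondrial NAD-dependent isocitrate dehydrogenase, had effects of 0.66 and -0.59 and an interaction of -1.25 (SE 0.18). *FBP1*, which encodes the gluconeogenic fructose-1,6-bisphosphatase, had 0.38 and -0.92, an interaction of -1.30 (SE 0.18). *PUT4*, the proline permease, had 1.19 and -0.69 with an interaction of -1.88 (SE 0.32), and *MTO1*, which modifies mitochondrial tRNAs, 0.69 and -0.78 with an interaction of -1.47 (SE 0.27). *GIT1*, a permease for glycerophosphoinositol, had 0.85 and -1.17, although its WT libraries in YPEG spread from 226 to 644 while those of H3L126H were 194 to 224. These interactions kept their sign and their call with either pair of WT libraries left out (for *SFC1* -1.66 and -2.71, for *IDP2* -1.58 and -2.26, for *ACO1* -1.80 and -1.94, for *CYC1* -1.30 and -1.49).

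The promoter of *IDP2*, from 250 bases before to 50 bases after its start codon (chrXII:504341-504640, plus strand, R64), is shown with the matches to CCAAT, the core letters bound by the Hap complex, searched on both strands and in capitals (ATTGG is the same motif on the other strand).
IDP2: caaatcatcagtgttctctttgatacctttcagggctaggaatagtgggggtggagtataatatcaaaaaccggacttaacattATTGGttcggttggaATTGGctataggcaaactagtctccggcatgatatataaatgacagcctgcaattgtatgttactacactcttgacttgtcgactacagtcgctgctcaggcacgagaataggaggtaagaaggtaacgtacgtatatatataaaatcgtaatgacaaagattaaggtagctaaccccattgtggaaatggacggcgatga
It holds 2 matches. CCAAT occurs in 43.3% of all 5985 promoters of this length, in 53.8% of those of the TCA cycle list and in 47.8% of those of the list for ethanol and glycerol use.

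Lists of genes were described by their counts and medians, beside 15.7% of genes called and a median of 0.025 over all genes (29.3% and 38.7% called with either WT pair left out). Of 13 TCA cycle genes, 7 were lower and none higher, with a median interaction of -0.49 (median effect 0.03 in YPD and -0.40 in YPEG). Besides *ACO1* and *IDH1* they included *IDH2* (-1.08, SE 0.22), *KGD1* (-0.70), *FUM1* (-0.60) and *LSC1* (-0.49), which encode subunits or enzymes of the steps from isocitrate to malate. Without WT replicates 1 and 2 the list had 11 lower (median -0.56), and without replicates 3 and 4 it had 8 lower and 1 higher (-0.43). Of 23 genes for the use of ethanol and glycerol, 7 were lower and 2 higher, with a median of -0.33. The lower ones were *SFC1*, *IDP2*, *FBP1*, *MLS1* (-1.10), *PCK1* (-0.99), *ADH2* (-0.85) and *GUT1* (-0.47), that is, carriers and enzymes of the glyoxylate cycle, gluconeogenesis, ethanol oxidation and glycerol phosphorylation. The higher ones were *YAT2* (0.73), a carnitine acetyltransferase, and *CIT2* (2.11), the peroxisomal citrate synthase. Left out in turn, the WT pairs gave 14 lower and 1 higher (median -0.72) and 9 lower and 5 higher (-0.16).

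Mitochondrial ribosomal proteins had 18 of 69 lower and none higher (median -0.20), with *MRP13*, *RSM22* and MRPS17 at -0.73 (SE 0.14), -0.96 (SE 0.16) and -0.73 (SE 0.17). With the WT pairs left out the counts were 28 lower and none higher, and 19 lower and 2 higher. Of 17 ATP synthase genes, *ATP19* (-0.68), *ATP15* (-0.56) and *ATP20* (-0.44) were lower and *STF2*, a factor associated with the synthase, was higher (1.75, SE 0.48), with a median of -0.32. The ATP synthase counts were 12 lower and 1 higher without WT replicates 1 and 2, 6 lower and 1 higher without replicates 3 and 4, and 1 to 6 called in all when 1 library was left out. The electron transport chain had 1 of 28 genes lower (*CYC1*) and 1 higher (*COX26*, 2.39, SE 0.69), a median of -0.08. It had 14 lower and 3 higher (median -0.43) without WT replicates 1 and 2, and 3 lower and 6 higher (0.21) without replicates 3 and 4, so both its calls and its sign changed with the WT libraries used. Of 25 copper genes, 4 were lower and 1 higher, with a median of 0.05. Without WT replicates 1 and 2 the copper list turned to 5 lower and 8 higher, and without replicates 3 and 4 it had 5 lower and 2 higher. *FET3*, a copper-dependent iron oxidase, had an interaction of -0.98 (SE 0.25), *COX17* and *COX11*, which deliver copper to cytochrome c oxidase, -0.61 (SE 0.12) and -0.49 (SE 0.12), and *CCC2*, the copper pump of the Golgi, -0.60 (SE 0.15). *CUP9*, a repressor of peptide import named for copper resistance, had 0.53 (SE 0.08), and *CTR1*, the main copper importer, had 0.42 (SE 0.14, edgeR adjusted p = 0.0510) and was not called.

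**Figure D2:**
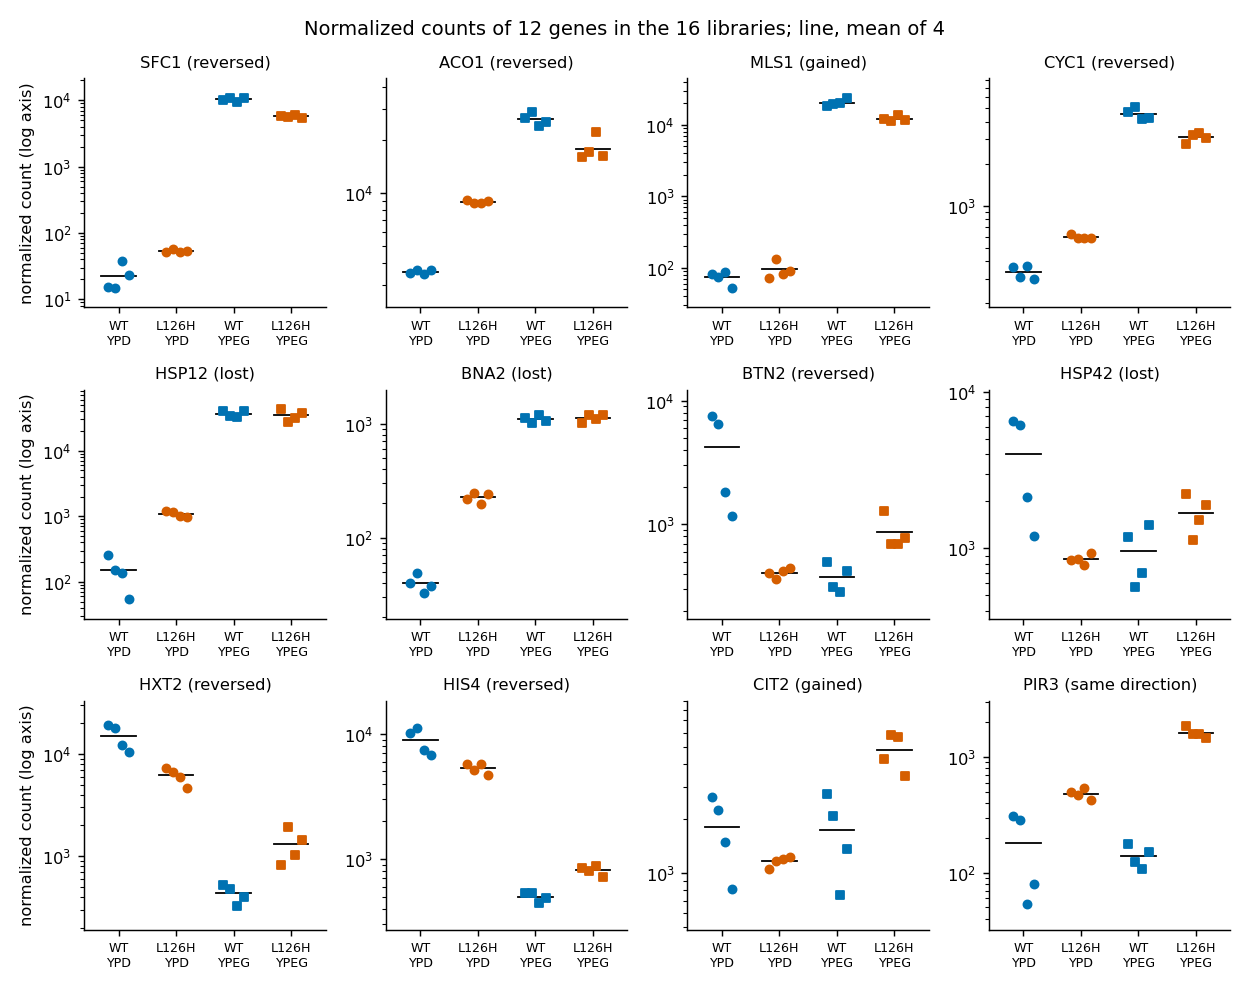
Normalized counts of 12 genes in each of the 16 libraries on a log axis, by strain and medium, with a line at the mean of the 4 libraries of a group. The mutant libraries of *SFC1*, *ACO1* and *CYC1* lie above WT in YPD and below it in YPEG, while those of *HXT2* and *HIS4* lie below in YPD and above in YPEG.

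In 39 genes the mutant was lower than WT in YPD and higher in YPEG, and they included hexose transporters, chaperones and enzymes of amino acid synthesis. *HXT2* (YMR011W, chromosome XIII 288079-289704) encodes a high-affinity hexose transporter. In YPD it had 19355, 17954, 12330 and 10398 in WT and 7346, 6727, 6011 and 4630 in H3L126H. The YPEG libraries had 525, 480.3, 328 and 402 in WT and 826, 1954, 1030 and 1441 in H3L126H. *HXT2* fell 34.7-fold with the medium in WT and 4.71-fold in H3L126H, and its interaction was 2.88 (SE 0.35, edgeR adjusted p = 8.65e-05). *HXT4*, a second high-affinity transporter, had effects of -0.69 and 1.73 and an interaction of 2.42 (SE 0.35). Of the 18 genes of glucose uptake and sensing, 4 were higher, the others being *HXT5* (1.07, SE 0.29) and the sensor gene *SNF3* (0.63), and 1 was lower, *HXT10* (-1.35, SE 0.38). The median of this list was 0.55, and it was 0.13 (3 higher, 4 lower) and 0.99 (11 higher, 1 lower) with either WT pair left out.

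*HIS4* (YCL030C, chromosome III 65934-68333) encodes an enzyme of histidine synthesis. Its WT libraries had 10065, 11181, 7386 and 6791 in YPD and its H3L126H libraries 5694, 5163, 5715 and 4680. In YPEG *HIS4* had 537, 531, 447 and 488 in WT and 853, 808, 876 and 712 in H3L126H. The groups did not overlap in either medium, and the interaction was 1.44 (SE 0.19, edgeR adjusted p = 0.00019). *ARG3*, the ornithine carbamoyltransferase of arginine synthesis, had -1.43 and 0.78 and an interaction of 2.21 (SE 0.38) at 27.3 to 197 normalized counts, and its groups overlapped in YPEG. *ARG5,6*, which catalyses earlier steps of the same pathway, had an interaction of 0.90 (SE 0.11). Of 48 genes of general amino acid synthesis, 13 were higher and 2 lower, with a median of 0.22. Among the higher ones were *ARG1*, *ARG7*, *ARG4*, *LYS20*, *HIS5* and *SER33* at 0.84, 0.63, 0.59, 0.64, 0.49 and 0.47, and the lower ones were *ARO1* (-0.50) and *LYS12* (-0.44). With the WT pairs left out the counts were 24 higher and 2 lower, and 16 higher and 7 lower. *HIS3*, marked his3Δ1 in both strains, had 248 to 684 normalized counts and an interaction of 0.42 (SE 0.12, edgeR adjusted p = 0.0317). Sulfur amino acid genes had 7 of 22 higher and none lower, with a median of 0.40, and the 7 were *STR3* (1.72, SE 0.47), *MET13* (1.08, SE 0.19), *MET16* (0.79), *MET2* (0.75), *MET22* (0.73), *SAM3* (0.72) and *MET3* (0.61). The sulfur counts were 9 and 8 higher and none lower with either WT pair left out.

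The promoter of *HIS4* (chrIII:68284-68583, minus strand, R64, 250 bases before to 50 after the start codon) is shown with TGACTC, the core letters of Gcn4, the activator of amino acid synthesis, in capitals, searched on both strands.
HIS4: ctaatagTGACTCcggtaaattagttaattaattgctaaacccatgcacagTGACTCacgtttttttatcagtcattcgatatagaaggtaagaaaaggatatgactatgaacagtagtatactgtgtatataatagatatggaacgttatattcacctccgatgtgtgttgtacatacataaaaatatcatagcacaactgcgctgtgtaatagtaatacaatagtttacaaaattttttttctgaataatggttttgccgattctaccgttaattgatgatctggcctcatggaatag
TGACTC was found 2 times here, in 8.0% of all promoters and in 60.4% of those of the amino acid list.

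*BTN2* (YGR142W, chromosome VII 772454-773686) encodes a factor that sorts misfolded proteins, and it had the largest interaction of any reversed gene. In YPD WT had 7447, 6454, 1839 and 1172 and H3L126H 406, 359, 416 and 443. In YPEG WT had 496, 309, 285 and 424 and H3L126H 1275, 699.5, 691 and 776. The effect was -3.38 (SE 0.46) in YPD and 1.19 (SE 0.43) in YPEG, an interaction of 4.57 (SE 0.62, edgeR adjusted p = 0.000236), with WT replicates 1 and 2 far above the other WT libraries in YPD. *HSP30*, which encodes a membrane protein induced by stress, had -1.91 and 1.92 and an interaction of 3.83 (SE 0.69). For *BTN2* the interaction was 3.16 without WT replicates 1 and 2 and 5.19 without replicates 3 and 4, and for *HSP30* 2.89 and 4.17. *GPD1*, for glycerol synthesis, had -1.09 and 0.77 with an interaction of 1.86 (SE 0.37). *ZRT1*, the high-affinity zinc transporter, had -1.05 and 0.49 with an interaction of 1.54 (SE 0.24), and *ECL1* had -0.96 and 0.42 with an interaction of 1.39 (SE 0.16). *MFA1*, a gene for the a-factor precursor, had -1.06 and 0.48 with an interaction of 1.54 (SE 0.19), and its groups overlapped in YPEG. *MFA2*, the other gene for this precursor, had -0.156 and -0.545. Its interaction of -0.39 (SE 0.14, edgeR adjusted p = 0.0728) was not called. Of the 7 a-cell genes 2 were called, *MFA1* and *AGA2* (0.96).

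With either pair of WT libraries left out, 90 of the 92 reversed genes had the same signs in both media in both fits, *PIN3* and *RTC3* being the exceptions. In 27 the calls of both media also remained in both fits. Of these, 16 were lower in YPEG (*SFC1*, *PUT4*, *IDP2*, *ACO1*, *SEO1*, *CWP1*, *GCV2*, *CYC1*, *TOP3*, *IDH1*, *YHP1*, *CDC45*, *GCV3*, *MAM33*, *DSE3* and *MRP4*) and 11 higher (*CUP9*, *DPL1*, *ARG5,6*, *IAT4*, *ECL1*, *HIS4*, *ZRT1*, *GPD1*, *SRY1*, *HXT2* and *BTN2*).

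An effect called in YPEG only was gained with the oxidative medium. *MLS1* (YNL117W, chromosome XIV 406358-408022) encodes malate synthase of the glyoxylate cycle. In YPD it was low in both strains, 82.8, 75.5, 87.2 and 53.0 in WT and 72.3, 135, 82.7 and 90.4 in H3L126H. In YPEG it had 18388, 19475, 20446 and 23437 in WT and 11988, 11225, 13551 and 11718 in H3L126H. The groups overlapped in YPD and not in YPEG, where the effect was -0.75 (SE 0.14), and the interaction was -1.10 (SE 0.23, edgeR adjusted p = 0.00632). *CIT2* (YCR005C, chromosome III 120946-122328), whose product feeds citrate into the same cycle, went the other way. Its YPD libraries had 2644, 2219, 1479 and 814 in WT and 1052, 1163, 1190 and 1222 in H3L126H. In YPEG *CIT2* had 2735, 2054, 749 and 1357 in WT and 4297, 5812, 5669 and 3453 in H3L126H. Every mutant library of YPEG was above every WT library. The effect was -0.63 in YPD, not called, and 1.48 in YPEG, and the interaction was 2.11 (SE 0.48, edgeR adjusted p = 0.00883).

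Other genes with a gained and lower effect were *SPS4*, a sporulation gene (-1.68, SE 0.28), and *SWC7*, a subunit of the *SWR1* chromatin remodeller (-1.26, SE 0.33). *SPS4* had 168, 254, 254 and 251 in WT and 94.3, 92.7, 93.0 and 113 in H3L126H in YPEG. *PLS1* had an interaction of -1.07 (SE 0.29), and the counted ORF *YNL179C*, which was not matched to the annotation, had an effect of 0.18 in YPD and -0.82 in YPEG. Among those with a higher effect, *SSE2*, an exchange factor of Hsp70 chaperones, had 1.69 (SE 0.44), *SPI1*, a cell wall protein, 2.08 (SE 0.57), *SDS24* 1.85 (SE 0.46) and *FMP16* 1.97 (SE 0.60). Part of each came from a lower value in YPD that was not called. The effects in YPD and YPEG were -0.54 and 1.15 for *SSE2* and -0.67 and 1.41 for *SPI1*. They were -0.74 and 1.11 for *SDS24* and -0.92 and 1.05 for *FMP16*. These 4 depended on the WT libraries chosen, as the interaction without WT replicates 1 and 2 was 0.51 for *SSE2* (edgeR adjusted p = 0.168), 1.14 for *SPI1* (adjusted p = 0.0236), 0.61 for *SDS24* (adjusted p = 0.0818) and 0.38 for *FMP16* (adjusted p = 0.566).

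Of 34 proteasome genes, 11 were higher and none lower, with a median interaction of 0.23 and median effects of 0.03 in YPD and 0.30 in YPEG. They included the core subunits *PRE2* (0.47, SE 0.13), *SCL1* (0.45), *PRE3* (0.38), *PRE4* (0.37) and *PRE9* (0.33), the regulatory subunits *RPN12* (0.46), *RPN11* (0.44), *RPN9* (0.41), *RPT3* (0.36) and *RPN8* (0.32), and *RPN4* (0.47, SE 0.12), the transcription factor of the proteasome genes. The calls were 2 to 13 when 1 library was left out, and 13 higher and 1 lower, or 23 higher and none lower, when a WT pair was. They were 6 with DESeq2 size factors and 7 with chromosome medians removed.

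Nitrogen source genes had 8 of 29 lower and 1 higher (*BAP2*, 0.35), with a median of -0.27. Besides *PUT4* the lower ones were *DAL1* (-0.99), *GAP1* (-0.89), *GDH1* (-0.81), *DAL4* (-0.78), *DAL2* (-0.65), *MEP3* (-0.51) and *PUT2* (-0.43), which encode permeases and enzymes for amino acids, allantoin, ammonium and proline. Of these, *DAL2*, *DAL4* and *GDH1* had the larger effect in YPEG (-0.54, -0.40 and -0.85), and *DAL1*, *GAP1*, *MEP3* and *PUT2* in YPD (1.13, 1.06, 0.98 and 0.48). With the WT pairs left out the nitrogen counts were 9 lower and 1 higher, and 15 lower and 2 higher. Oxidative stress genes had 6 of 26 higher and 2 lower, with a median of 0.20, and 8 higher and 5 lower, or 9 higher and 2 lower, with a WT pair left out. The higher ones were *OYE2* (0.89), *GRX2* (0.83), *GSH1* (0.80), *AHP1* (0.80), *TRX2* (0.66) and *TRR1* (0.28), for glutathione and thioredoxin systems and an NADPH dehydrogenase, and the lower ones *OYE3* (-1.01, SE 0.24) and *PRX1* (-0.67), both higher than WT in YPD (2.00 and 1.73).

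**Figure D3:**
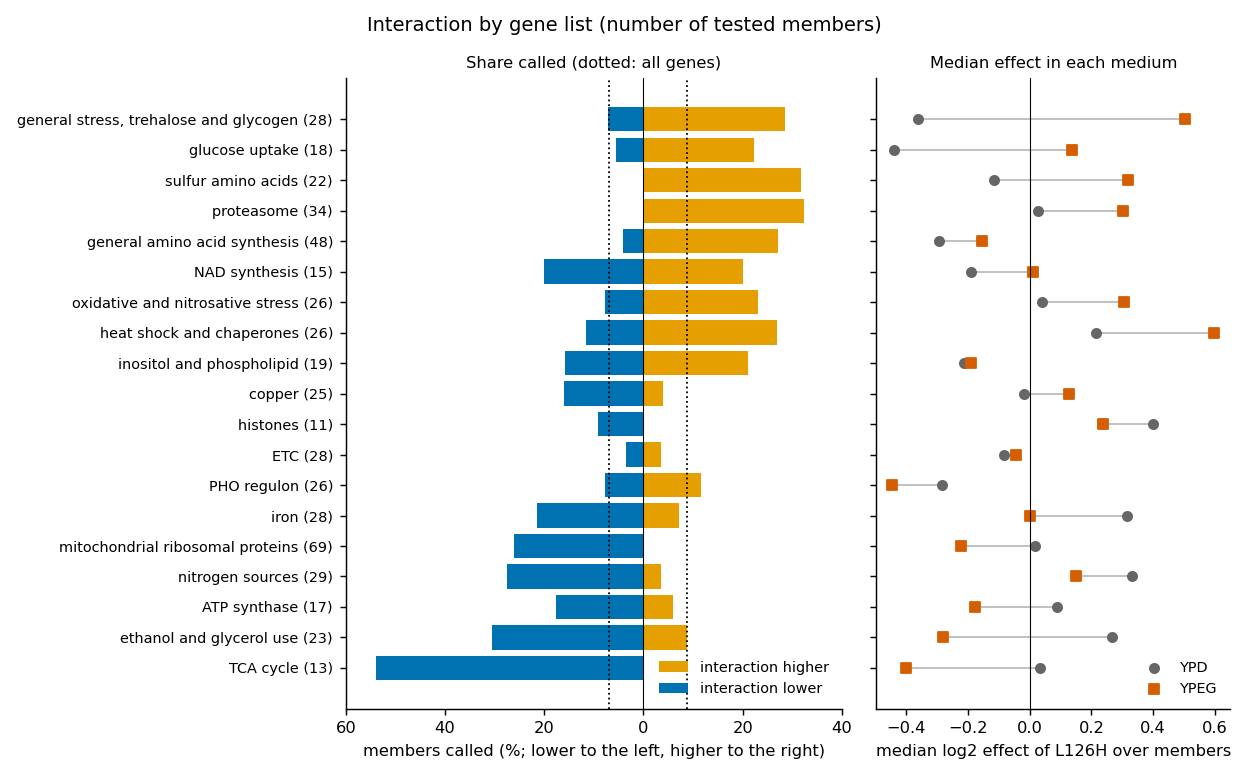
Share of each list called with a higher or a lower interaction, with dotted lines at 8.73% and 6.99% over all genes, and the list's median log2 effect of H3L126H in YPD and in YPEG. The TCA cycle (7 of 13) and ethanol and glycerol lists have their calls mostly on the lower side, the proteasome (11 of 34) and sulfur amino acid (7 of 22) lists on the higher side.

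In 170 genes with a lower interaction the effect was lost, most of them higher than WT in YPD and not called in YPEG. *BNA2* (YJR078W, chromosome X 578860-580221) encodes the first enzyme of NAD synthesis from tryptophan. In YPD it had 39.8, 48.5, 32.6 and 37.7 in WT and 220.2, 245, 196 and 240.2 in H3L126H. The YPEG values were 1114, 1012, 1190 and 1064 in WT and 1024, 1181, 1103 and 1188 in H3L126H. The effect was 2.51 (SE 0.12) in YPD and 0.04 (SE 0.09) in YPEG, and the interaction was -2.47 (SE 0.15, edgeR adjusted p = 4.52e-08). Among 15 NAD synthesis genes, *BNA1* (-0.66) and *BNA4* (-0.45) were also lower and *BNA7* (0.64), *BNA5* (0.58) and *NPT1* (0.47) higher. *HSP12* (YFL014W, chromosome VI 107256-107585), a small membrane-bound stress protein, had 255, 154, 139 and 54.0 in WT and 1199, 1163, 1026 and 971 in H3L126H in YPD. In YPEG *HSP12* had 39917, 34015, 32235 and 40824 in WT and 43550, 27607, 31302 and 37149 in H3L126H, and the groups overlapped. Its interaction was -2.93 (SE 0.38, edgeR adjusted p = 0.000127).

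*INO1* (YJL153C, chromosome X 134332-135933) encodes the enzyme that makes inositol phosphate from glucose 6-phosphate. *INO1* had 40.8, 76.6, 69.3 and 74.3 in WT and 219, 272, 287 and 296 in H3L126H in YPD. In YPEG it had 839, 841, 693 and 843 in WT and 1039, 775, 830.0 and 764 in H3L126H, which overlapped. The interaction of *INO1* was -1.95 (SE 0.22, edgeR adjusted p = 3.57e-05). Among the 19 genes of inositol and phospholipid synthesis 3 were lower, *INO1*, *GIT1* and *PSD1* (-0.38), and 4 were higher, *INO2* (0.85), *LPP1* (0.57), *EPT1* (0.50) and *PAH1* (0.37), with *INO2* encoding an activator of *INO1*. *ECM13* had effects of 2.62 in YPD and 0.35 in YPEG, an interaction of -2.27 (SE 0.39).

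Of 28 iron genes, 6 were lower and 2 higher, with a median of -0.16, and 7 of the 8 were called in YPD only. *SIT1* (YEL065W, chromosome V 27657-29543) encodes a siderophore transporter. It had 239.7, 199.5, 428 and 559 in WT and 1331, 1540, 1475 and 1373 in H3L126H in YPD. *SIT1* had 10269, 9734, 8318 and 6594 in WT and 12567, 10050, 8700 and 11650 in H3L126H in YPEG. The effect was 2.00 (SE 0.24) and 0.30 (SE 0.23), the interaction -1.70 (SE 0.33, edgeR adjusted p = 0.00371). *FTR1*, the permease of high-affinity iron uptake, had an interaction of -1.16 (SE 0.23), *VHT1*, the biotin transporter regulated with iron genes, -0.96, *HMX1*, heme oxygenase, -0.91, and *FIT3*, a cell wall mannoprotein, -0.79. *FIT2* (YOR382W, chromosome XV 1059531-1059992), of the same kind as *FIT3*, had 389, 258, 265 and 267 in WT and 564, 631, 595 and 600.5 in H3L126H in YPD. In YPEG *FIT2* had 36471, 30480, 30660 and 23980 in WT and 33147, 23380, 19382 and 25806 in H3L126H, so the medium changed it 103-fold in WT and 42.5-fold in the mutant. *FIT2* had an interaction of -1.28 (SE 0.23, edgeR adjusted p = 0.00254). The 2 iron genes with a higher interaction were *FET4*, a low-affinity transporter (1.07, SE 0.19), and *FRE4*, a reductase (1.08, SE 0.32). Chromosome V, which carries *SIT1* and *FTR1*, had a median effect of 0.18 in YPD and 0.21 in YPEG, and the part of that shift in these genes was not tested.

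The promoter of *FIT2* (chrXV:1059281-1059580, plus strand, R64, 250 bases before to 50 after the start codon) is shown with GGGTGC, the core letters of the iron regulator Aft1, in capitals on either strand (GCACCC on the other).
FIT2: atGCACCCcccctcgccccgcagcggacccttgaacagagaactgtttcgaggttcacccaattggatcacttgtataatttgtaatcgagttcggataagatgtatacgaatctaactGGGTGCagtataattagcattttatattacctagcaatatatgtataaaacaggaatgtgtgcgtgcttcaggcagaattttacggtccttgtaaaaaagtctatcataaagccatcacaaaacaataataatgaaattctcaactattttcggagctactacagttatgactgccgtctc
There are 2 matches, and the motif occurs in 4.24% of all promoters and in 42.9% of those of the iron list.

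The 273 lost genes with a higher interaction contained storage carbohydrate and chaperone genes. *GSY1* (YFR015C, chromosome VI 174265-176391) encodes glycogen synthase. In YPD it had 6380, 5564, 1794 and 948 in WT and 554, 464, 329 and 288 in H3L126H. In YPEG *GSY1* had 1511, 793, 519 and 784 in WT and 799, 881, 1134 and 962 in H3L126H. The groups were apart in YPD, where WT itself ran from 948 to 6380, and overlapped in YPEG. The interaction of *GSY1* was 3.23 (SE 0.65, edgeR adjusted p = 0.00433). *HSP42* (YDR171W, chromosome IV 806621-807748), a small heat shock protein, had 6527, 6110, 2139 and 1194 in WT and 839, 854, 782 and 934 in H3L126H in YPD. In YPEG *HSP42* had 1177, 563, 697 and 1407 in WT and 2222, 1137, 1515 and 1882 in H3L126H. The groups of *HSP42* were apart in YPD and overlapped in YPEG, and the interaction was 3.04 (SE 0.58, edgeR adjusted p = 0.00366). *ROQ1*, which steers a ubiquitin ligase under stress, had 3.20 (SE 0.47), *TDH1*, an isoform of glyceraldehyde-3-phosphate dehydrogenase, 2.54 (SE 0.69), and *ICY2* 2.50 (SE 0.40). In YPEG the effects of *ROQ1* (0.70) and *ICY2* (0.33) were not called, although all their mutant libraries lay above WT. *TDH1* is unique over 84.3% of its 50-base windows and may share reads with other TDH genes. *PHO8*, the vacuolar alkaline phosphatase, had -1.23 (SE 0.09) in YPD and -0.16 (SE 0.09) in YPEG, an interaction of 1.07 (SE 0.12).

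Of 28 genes for general stress, trehalose and glycogen, 8 were higher and 2 lower, with median effects of -0.36 in YPD and 0.50 in YPEG. Besides *GSY1*, *GPD1* and *SPI1* the higher ones were *GLC3*, the glycogen branching enzyme (2.38, SE 0.61), *TPS2*, the trehalose phosphatase (1.88, SE 0.43), *MSC1* (1.48, SE 0.45), *GLG1*, which primes glycogen (1.34, SE 0.39), and *UGP1*, which makes its glucose donor (0.71). The lower ones were *YGP1* (-1.23) and *GLG2* (-0.90). The median of this list depended on the WT libraries more than any other list described here. It was 0.66 with all libraries, 0.08 without WT replicates 1 and 2 (6 higher, 4 lower) and 1.19 without replicates 3 and 4 (20 higher, 1 lower). Of 26 heat shock genes and chaperones, 7 were higher and 3 lower, with a median of 0.19. The 2 directions were nearly even without WT replicates 1 and 2 (5 higher, 4 lower, median 0.014), and without replicates 3 and 4 there were 11 higher and 3 lower (0.23). *HSP104*, the disaggregase, had 1.92 (SE 0.54), and 0.60 (edgeR adjusted p = 0.172) without WT replicates 1 and 2. *FES1* (1.33) and *SIS1* (1.03), both partners of Hsp70, were higher, and *AHA1* (-0.80), a partner of Hsp90, and *HSP60* (-0.48), the mitochondrial chaperonin, were lower like *HSP12*. PHO regulon genes had 3 of 26 higher, *PHO8*, *PHO12* (0.98) and *PHO5* (0.93), and 2 lower, *GIT1* and *PHO84*, and 5 higher and 3 lower, or 3 higher and 11 lower, with a WT pair left out. *PHO84*, the phosphate transporter, had 6773, 6904, 16046 and 17760 in WT and 18744 to 21252 in H3L126H in YPD, and its interaction of -1.46 (SE 0.41, edgeR adjusted p = 0.0251) was -0.49 (adjusted p = 0.0792) without WT replicates 1 and 2.

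The promoter of *HSP42* (chrIV:806371-806670, plus strand, R64, 250 bases before to 50 after the start codon) is shown with AGGGG, the stress response element bound by Msn2 and Msn4, and GAANNTTC, a core of heat shock elements bound by Hsf1, in capitals on either strand.
HSP42: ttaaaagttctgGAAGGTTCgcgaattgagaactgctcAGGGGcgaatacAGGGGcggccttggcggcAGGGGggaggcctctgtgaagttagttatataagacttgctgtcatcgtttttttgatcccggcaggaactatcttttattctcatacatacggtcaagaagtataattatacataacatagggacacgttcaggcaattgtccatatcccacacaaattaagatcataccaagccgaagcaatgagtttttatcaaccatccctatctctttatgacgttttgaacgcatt
It holds 3 matches to AGGGG and 1 to GAANNTTC, which do not overlap. AGGGG occurs in 21.8% of the 5787 promoters of tested genes. It was in 33.7% of the 520 promoters of genes with a higher interaction and in 19.0% of the 416 of genes with a lower one. The share was 32.0% for gained, 35.6% for lost and 30.8% for reversed genes of the higher direction. Among the genes called with either WT pair left out, AGGGG was in 33.7% of 312 promoters of the higher direction and in 18.2% of 340 of the lower one. GAANNTTC occurs in 11.8% of all promoters and in 38.5% of those of the heat shock list. These letters are a description of the promoters, and binding was not measured.

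In 68 genes the effect had the same direction in both media and differed in size. *PIR3* (YKL163W, chromosome XI 144401-145378), a cell wall protein, was higher in the mutant in YPD and more so in YPEG. It had 307, 284, 53.6 and 79.4 in WT and 496, 472, 539.5 and 429 in H3L126H in YPD. In YPEG *PIR3* had 177, 123, 108 and 149.9 in WT and 1842, 1585, 1586 and 1456 in H3L126H. The effect was 1.43 (SE 0.36) in YPD and 3.54 (SE 0.37) in YPEG, and the interaction was 2.11 (SE 0.50, edgeR adjusted p = 0.0116), or 0.78 without WT replicates 1 and 2. *TKL2*, a transketolase isoform, had 0.92 and 2.22 with an interaction of 1.30 (SE 0.39). *HEM13*, of heme synthesis, was lower in both media and less so in YPEG (-1.41 and -0.31), an interaction of 1.09 (SE 0.14). *THI5*, of thiamine synthesis, *DPA10* and *ANS1* were higher in both media and less so in YPEG. *DPA10* had 0, 9.02, 2.10 and 1.02 in WT and 29.7 to 67.6 in H3L126H in YPD, and 546 to 945 against 1371 to 1910 in YPEG. *ANS1* had 0 in 3 WT libraries of YPD and 4.07 in the other, so its interaction of -2.92 (SE 0.79) rests on few reads. *THI5* is unique over 15.0% of its windows, and its value stands for a group of near-identical genes.

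The sign and size of these interactions were compared with either pair of WT libraries left out. All 146 called members of the lists described kept their sign in both fits, while 22 were not called without WT replicates 1 and 2, 13 were not called without replicates 3 and 4, and 40 moved by over 1.5 times in at least one of them. Without WT replicates 1 and 2 the interaction was 1.34 for *COX26* (edgeR adjusted p = 0.0971), 0.54 for *HXT5* (0.163), 0.55 for *MSC1* (0.194), 0.36 for *HIS3* (0.0873), 0.95 for *TKL2* (0.130) and -1.87 for *ANS1* (0.138), none of them called. For *GLC3* (1.23), *TPS2* (1.21), *STF2* (0.71), *TDH1* (1.14), *HSP42* (1.64), *STR3* (0.77), *ICY2* (1.52), *SIT1* (-1.02) and *FTR1* (-0.71) it was smaller by over 1.5 times and still called. Without WT replicates 3 and 4 the interaction of *FRE4* was 0.57 (edgeR adjusted p = 0.107) and that of *SIT1* -2.60. Among the other list members described, *YAT2*, *SNF3*, *FET3* (-0.44), *MET16* (0.32), *MEP3* (-0.23), *BNA4*, *SIS1* (0.40), *GLG1* (0.40), *PSD1*, *PAH1*, *PRE3* and *RPT3* were also not called without WT replicates 1 and 2, at adjusted p of 0.0572 to 0.264. *ATP19* (-0.29), *PHO5* (0.43), *PHO12* (0.62), *LYS20* (0.29), *BNA7* (0.26), *GLG2* (-0.44), *TRR1* and *LPP1* were not called without replicates 3 and 4, at adjusted p of 0.0502 to 0.203. Of the 64 named genes called, 17 were not called in at least 1 fit with a single library left out: *ANS1*, *COX26*, *FMP16*, *FRE4*, *HHO1*, *HIS3*, *HSP104*, *HXT5*, *HXT10*, *MSC1*, *PHO84*, *SPI1*, *STF2*, *STR3*, *TDH1*, *TKL2* and *YNL179C*. WT YPD replicate 1 or 2 was among the libraries concerned in each of them but *HHO1* and *PHO84*, and the highest adjusted p was 0.0947, for *FMP16* without WT YPD replicate 1.

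The same interaction can be read as a difference in the response to the medium. YPEG differed from YPD at 4015 genes (66.5%) in WT and at 4040 (66.9%) in H3L126H, and it was higher in YPEG at 35.2% of genes in WT and at 37.8% in H3L126H. Of the 949 interaction genes, 310 responded in both strains in one direction and less in H3L126H, 82 responded more in H3L126H, and 54 responded in opposite directions. In 256 the response was called in WT only, in 245 in H3L126H only and in 2 in neither strain. Over all genes tested, 1751 had a smaller response in H3L126H, 1335 a larger and 55 an opposite one. The response was called in WT only at 874, in H3L126H only at 899 and in neither strain at 1124. Among the 310 with a smaller response, 208 rose with YPEG in WT, as *SFC1*, *IDP2*, *ACO1*, *CYC1*, *MLS1*, *SIT1* and *FIT2* did, and 102 fell, as *HXT2* and *HIS4* did. The TCA cycle list had a median response of 2.73 in WT and 2.13 in H3L126H (log2), the ethanol and glycerol list 4.30 and 3.88, and the stress list 0.01 and 0.93.

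**Figure D4:**
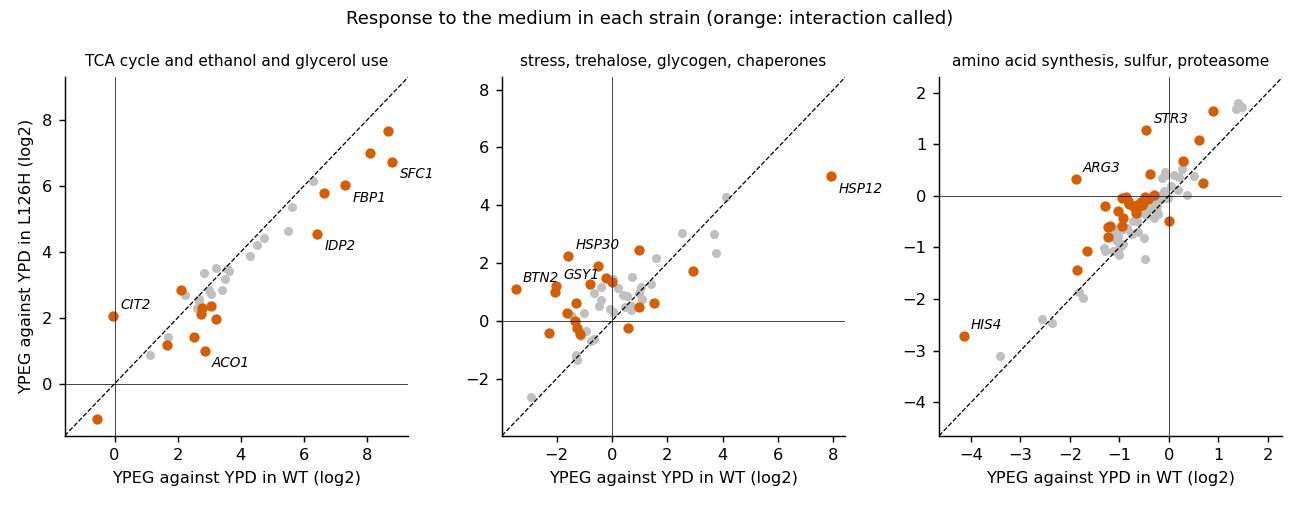
Log2 change from YPD to YPEG in WT (horizontal axis) and in H3L126H (vertical axis) for the genes of 3 sets of lists (TCA cycle with ethanol and glycerol use, stress with chaperones, amino acid synthesis with the proteasome), with genes called for the interaction in orange. Points on the diagonal responded alike, and *SFC1*, *IDP2* and *ACO1* lie below it on the side of induction.

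A comparison in which WT cancels was made with the 8 libraries of H3L126M. The difference between the interaction of H3L126H and that of H3L126M contains no WT term. Its spread and scaling came from the fit of all 24 libraries, so its p-values are not free of WT. It was called at 982 of 6082 genes (16.1%). In the same fit of 24 libraries the interaction against WT was called at 1181 genes (19.4%) in H3L126H and at 1504 (24.7%) in H3L126M, and these 2 share their WT libraries. Of the 949 genes, 270 were called against H3L126M. Against H3L126M, the interaction was -2.01 for *SFC1*, -2.16 for *IDP2*, -1.96 for *ACO1*, -1.32 for *CYC1*, -1.86 for *FBP1* and -1.45 for *MLS1*, all called with edgeR (adjusted p from 6.38e-07 for *IDP2* to 0.000506 for *MLS1*). *HXT2* (2.71), *HXT4* (2.84), *BTN2* (3.07), *HSP30* (2.97), *HSP12* (-2.06) and *INO1* (-3.12) were called too. So were *ROQ1* (1.83), *HSP42* (1.585) and *SSE2* (1.44). Not called were *GSY1* (1.22, edgeR adjusted p = 0.168), *SPI1* (1.22, 0.103), *SDS24* (0.39, 0.547) and *FMP16* (1.53, 0.0811). *TDH1* (0.865, 0.357), *PIR3* (0.44, 0.585) and *MTO1* (-0.50, 0.173) were not called either. In H3L126M the interaction against WT was called for *GSY1* (2.01), *SDS24* (1.45), *PIR3* (1.67) and *MTO1* (-0.98). For *BNA2* the difference was 0.13 (adjusted p = 0.598), for *CIT2* 0.01 (0.995), for *SIT1* -0.07 (0.920), for *FTR1* 0.06 (0.903), for *PHO8* -0.08 (0.722) and for *HIS4* -0.50 (0.180), none of them called. Their interactions against WT in H3L126M were -2.61 for *BNA2*, 2.10 for *CIT2*, -1.64 for *SIT1*, -1.23 for *FTR1*, 1.14 for *PHO8* and 1.93 for *HIS4*, measured from the same WT libraries.

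Of 11 histone genes, 1 was called for the interaction with all 16 libraries. *HHT1* had 8533, 8612, 8671 and 8747 in WT and 17671, 17239, 17132 and 16745 in H3L126H in YPD. In YPEG *HHT1* had 12166, 10765, 6759 and 6257 in WT and 20780, 20362, 19902 and 15171 in H3L126H. The mutant was higher in both media (0.99 and 1.08), and the interaction was 0.09 (95% interval -0.42 to 0.61). *HHT2* had effects of 0.26 and 0.24 and an interaction of -0.02 (95% interval -0.32 to 0.29). The gene called was *HHO1*, the linker histone H1 (-0.37, SE 0.10, edgeR adjusted p = 0.0266), with values of 0.45 in YPD and 0.08 in YPEG. *HHT1* and *HHF1* lie on chromosome II, and the other interactions were between -0.34 (*HHF1*) and 0.44 (*HTA2*), none of them called. Other calls were made when a WT pair was left out. Without WT replicates 1 and 2, *HTA2* (1.06, edgeR adjusted p = 0.00105), *HTA1* (0.84, 0.000817) and *HHT1* (0.55, 0.00746) were higher and *HHO1* lower (-0.39). Without replicates 3 and 4, *HHF1* (-0.49, edgeR adjusted p = 0.00695), *HHF2* (-0.26, 0.0405) and *HHO1* (-0.36) were lower, and the interaction of *HHT1* was -0.27 (0.130). For *HHT1* its sign thus followed the WT libraries used.

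Whole chromosomes differed between the strains in both media alike. The median effect over the genes of chromosome II was 0.37 in YPD and 0.41 in YPEG, that of chromosome XVI 0.37 and 0.38, and that of the 12 mitochondrial genes tested 1.04 and 1.09. The median interaction lay between -0.05 (chromosome X) and 0.12 (chromosome IX). The share of genes called per nuclear chromosome ran from 12.7% (chromosome XIII) to 21.3% (chromosome I). With chromosome medians removed the interaction was called at 902 genes.

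**Figure D5:**
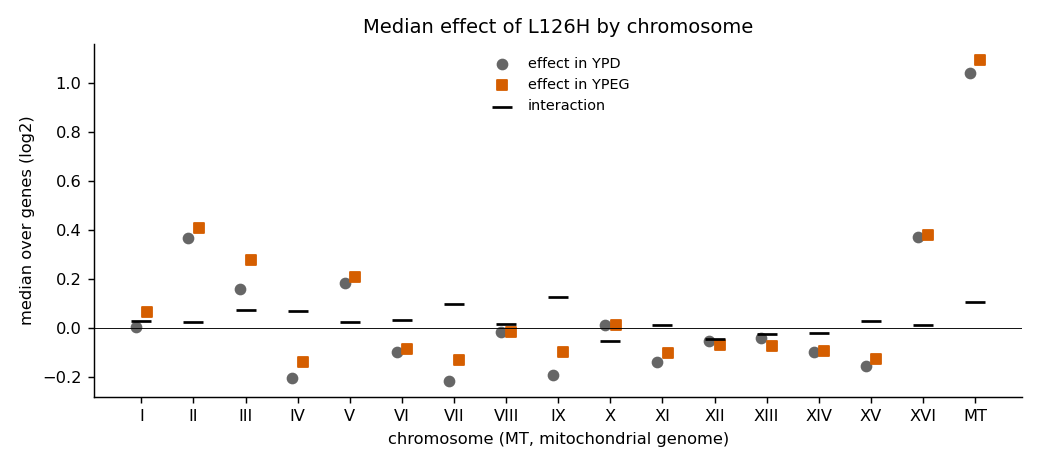
Median log2 effect of H3L126H over the genes of each chromosome in YPD and in YPEG, and the median interaction. Chromosomes II and XVI stand at 0.37 to 0.41 in both media, while the interaction medians stay between -0.05 and 0.12.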

How the data were processed

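Counts of mRNA-seq reads per ORF were analysed for 16 libraries, WT and H3L126H in YPD and YPEG with 4 replicates each, and for the 8 H3L126M libraries where named. The authors deposited whole-number counts for 6692 ORFs, after strand-specific alignment with HISAT2 to sacCer3 (R64-1-1) and counting with featureCounts. Versions and the strand option of the counting are not given in the sources used here. A file that the authors normalized with DESeq2 was not used. No column of other samples was present (0).

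All genes were fitted together with the quasi-likelihood test of edgeR 4.0.16 (R 4.3.3) with TMM scaling, low counts removed by filterByExpr (min.count 10) and a term per group. P values were two-sided and adjusted with the Benjamini-Hochberg method over all 6038 genes, and a gene was called below 0.05. Normalized counts are TMM-scaled to the mean effective library size. The procedure was tested on simulated counts, drawn independently for each library. They had no division between WT replicates 1 and 2 and replicates 3 and 4, so the test does not cover it. The design had no replicate block. Alternatives were DESeq2 1.42.0 (Wald test), other scaling, other filters, an adjusted p below 0.01, all 24 libraries, removal of chromosome medians, classes by size, the replicate block and each library left out in turn. Leaving out WT replicates 1 and 2, or 3 and 4, and a replicate block within each medium were added after the data were seen.

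Genes were named by a rule: with a mean of at least 50 normalized counts and mutant libraries apart from WT in the medium of the call, the 5 highest and 5 lowest interactions of the reversed, gained and lost classes and the 3 highest and 3 lowest of the same-direction classes. Histone genes, the marked genes of the strains and members of described lists past 2-fold were added. A list was described if at least 25% and at least 4 of its tested members were called, or if it was named in the design. Other called list members, marker genes and the lists of genes that kept their calls were chosen after their values were seen. The comparison and the lists were chosen with earlier results of these data known. Annotation and sequences come from RefSeq R64, to which 6008 of 6692 ORFs were matched. Motif searches covered 300 bases per promoter. Figures were drawn with matplotlib 3.10.9 in Python 3.11.15.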

Additional observations from a re-analysis of the deposited data

Results flagged for a closer look

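The effect of H3L126H differed between the media at 949 genes by the interaction test, and the interaction of H3L126H differed from that of H3L126M at 982. Single libraries lay far from the other 3 of their group by Dixon's test in 23 of 296 groups looked at, and chance alone gives about 1 in 20.

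In H3L126H in YPEG, replicate 1 was high for *BTN2* (1275 normalized counts), *ROQ1* (254.8) and *DPA10* (1910). Replicate 3 of the same group was high for *ACO1* (22131), *HEM13* (600.1) and *TPS2* (2335). Replicate 4 was low for the histone genes *HHT1* (15171), *HHF1* (16397) and *HTB2* (7712), and high for *SPS4* (113.4). In H3L126H in YPD, replicate 1 was high for *CYC1* (626.4), replicate 3 low for *HSP104* (5219), and replicate 4 high for *SPI1* (653.5) and low for *GPD1* (1099).

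In WT in YPEG, replicate 1 was low for *SPS4* (167.6) and *ICY2* (354.2), replicate 2 high for *OYE3* (304.3), replicate 3 low for *INO1* (693.3) and *MET13* (294.4), and replicate 4 low for *ZRT1* (271.6). In WT in YPD, replicate 1 was high for *FIT2* (389.1), replicate 2 for *HTZ1* (1172) and replicate 4 for *ANS1* (4.074).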

How the results depend on the processing

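No named gene that was called changed its direction under the alternatives run. The medians of the electron transport, copper and histone lists changed sign in some of them. With a WT pair left out, so did those of cytosolic ribosomal protein, subtelomeric, ergosterol, and a-cell and mating genes. The same held for purine, peroxisome, zinc and manganese, and PAU, DAN and TIR genes. With WT replicates 1 and 2 left out, 1787 genes were called (894 higher, 893 lower), with 221 reversed, 774 gained, 107 larger and 104 smaller in YPEG in the same direction and 52 in neither medium. With WT replicates 3 and 4 left out, 2354 were called (1200 higher, 1154 lower), 447 at least 2-fold, with 371 reversed, 501 gained, 1057 lost, 124 larger, 230 smaller and 71 in neither. At an adjusted p below 0.01, 274 were called (137 higher, 137 lower), 119 at least 2-fold, with 26 reversed, 83 gained, 144 lost, 2 larger, 10 smaller and 9 in neither. DESeq2 called 1242 genes, with 574 higher, 668 lower, 28 larger, 80 smaller and 50 in neither. The fit of 24 libraries gave 29 larger, removal of chromosome medians 6 larger and 75 in neither, and classes by size 153 reversed, 16 gained and 64 lost. The balance of the directions thus turned with the Wald test of DESeq2, as it did with DESeq2 size factors (448 higher, 524 lower), without chromosome medians (416 and 486) and among the genes kept with either WT pair left out (313 and 342).

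With each library left out in turn, the calls ran from 614 (without WT YPD replicate 2) to 1520 (without WT YPD replicate 4), the higher ones from 310 to 804, the lower ones from 301 to 716 and those of at least 2-fold from 174 to 348. The classes ran from 60 to 195 reversed, 170 to 467 gained, 269 to 705 lost, 8 to 32 larger, 33 to 89 smaller and 9 to 59 in neither. Of the 949 genes, 525 were called with the same sign in all 16 of these fits. Among the 74 named genes tested, leaving out WT YPD replicate 1 moved 12 across the threshold and replicate 2 moved 13, the WT pair 1 and 2 took away 11 calls and added 3 (*HHT1*, *HTA1* and *HTA2*), and the pair 3 and 4 took away 2 and added 2 (*HHF1* and *HHF2*). The causes were not tested.

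With the replicate block 1009 genes were called (530 higher, 479 lower), of which 891 were among the 949. It took away the call of *FMP16* (adjusted p = 0.0558). Deviations of same-numbered samples from their group means correlated between -0.245 and 0.378, over 0.1 in 8 of 24 pairs. Between WT and H3L126H of one medium all 8 correlations were above 0 (0.038 to 0.378), 6 of them over 0.1, and 11 of 16 libraries correlated best with their own number. Since 2 were not over 0.1 and no label says that a number marks a shared batch or day, the samples were not treated as paired. These values do not show that samples of one number are independent. A replicate block within each medium called 989 genes (526 higher, 463 lower), 842 of them among the 949, without *SPI1* (adjusted p = 0.0515), *FMP16* (0.0612), *TDH1* (0.0599) and *HIS3* (0.0589). Depth limits the genes near 0 in YPD (*ANS1*, *DPA10* and *THI5*), where single reads move the value.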

Other observations

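The number of calls in further gene groups changed with the choice of WT libraries. Of these, ribosome biogenesis, cell cycle and glycolysis genes kept the sign of their median. Of 139 genes for cytosolic ribosomal proteins none was called by edgeR with all 16 libraries (median interaction 0.07). Without WT replicates 1 and 2, 104 of the 139 were higher (median 0.46), and without replicates 3 and 4, 62 were lower and 1 higher (-0.24), so the sign of the list changed. Ribosome biogenesis genes, which encode factors that process rRNA and assemble ribosomes, had 7 of 92 lower and none higher (median -0.31), and -0.15 (3 higher, 14 lower) and -0.49 (64 lower) with either pair left out. Cell cycle genes had 5 of 31 lower and none higher (median -0.41, and -0.30 and -0.51 with a pair left out). Glycolysis genes had 3 of 17 higher and none lower (median 0.41), and 14 and 8 higher with the pairs left out (0.69 and 0.28). Over all genes the share called in these fits was 29.3% and 38.7%, against 15.7% with all libraries.

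Genes within 30 kb of a chromosome end had 33 of 331 higher and 26 lower, with a median of 0.015 (-0.004 and -0.012 with either WT pair left out), and Ty genes, whose sequences are shared between copies, 4 higher and 4 lower of 49 tested.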
